A study of Mus musculus with 2 samples.

Results

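Keratins are the proteins of the intermediate filaments of epithelial cells, and keratin-associated proteins (Krtap) are the matrix proteins in which the filaments of hair are embedded. The genes were taken from the deposited table of DNase I hypersensitivity by name, as every gene whose symbol starts with Krt and a digit or with Krtap. Of the 22605 genes of the table, 97 were found, namely 51 keratin genes and 46 Krtap genes. The study compared untreated M1 cells, a mouse myeloid progenitor cell line, with M1 cells treated with the cytokine interleukin-6 (IL-6), which drives them toward macrophages. IL-6 was given for 4 to 5 days per the labels, and the treatment is the only difference that the labels name. DHS-seq, which sequences the small DNA pieces that a brief DNase I digestion cuts out of accessible chromatin, was done with 1 library per condition, so differences have no replicate behind them and were not tested.

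Type I keratins, which are acidic, pair with type II keratins, which are basic or neutral, and each epithelium uses its own pairs. Simple epithelia use the pair of Krt8 and Krt18, the basal layer of the epidermis Krt5 and Krt14, and its upper layers Krt1 and Krt10, while hair and the inner root sheath have keratins of their own. Blood cells build their intermediate filaments mainly from vimentin, and keratin genes are usually taken as silent tissue-specific genes there. In the mouse, type I genes lie together on chromosome 11, except Krt18, which lies beside Krt8 among the type II genes on chromosome 15.

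On the NCBIM37 build the chromosome 11 cluster held 49 genes (27 keratin and 22 Krtap) within 1.03 Mb, at chr11:99096233-100131185. The chromosome 15 cluster held 24 keratin genes within 0.682 Mb, at chr15:101180346-101862392. The chromosome 16 cluster held 19 Krtap genes within 0.960 Mb, at chr16:88611735-89571374. The other 5 genes were Krtap5-2, Krtap5-3, Krtap5-4 and Krtap5-5 on chromosome 7 and Krtap12-1 on chromosome 10. All 97 listed spans run from start codon to stop codon in the GENCODE M1 annotation, and no window was shared between them. For each span the table gives the mean signal and its SD over the 700-bp windows that the span touches. Keratin spans covered 5 to 30 windows. Of the 97 spans, 15 covered 1 window and 27 covered 2, so most Krtap genes rest on very few windows. The windows also held the annotated transcription start of 90 genes, 47 keratin and 43 Krtap.

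Short spans and near-identical copies limit what can be counted at Krtap genes, and a few of their sequences are shown for this reason. Krtap3-1 (chr11:99427601-99427897, minus strand) and its neighbor Krtap3-2 (chr11:99417815-99418114, minus strand) encode high-sulfur matrix proteins of hair. Their coding spans on NCBIM37 are printed 5′ to 3′ with each CG dinucleotide in capitals. Krtap3-3 (chr11:99411824-99412123, minus strand) had 0 differences from Krtap3-2 over all 300 bases and is not printed again.
Krtap3-1: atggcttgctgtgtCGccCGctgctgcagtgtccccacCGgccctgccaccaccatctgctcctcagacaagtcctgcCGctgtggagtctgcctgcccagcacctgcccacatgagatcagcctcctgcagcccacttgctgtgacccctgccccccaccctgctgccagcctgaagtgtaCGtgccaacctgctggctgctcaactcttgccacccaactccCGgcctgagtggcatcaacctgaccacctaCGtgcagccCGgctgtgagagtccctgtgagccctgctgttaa
Krtap3-2: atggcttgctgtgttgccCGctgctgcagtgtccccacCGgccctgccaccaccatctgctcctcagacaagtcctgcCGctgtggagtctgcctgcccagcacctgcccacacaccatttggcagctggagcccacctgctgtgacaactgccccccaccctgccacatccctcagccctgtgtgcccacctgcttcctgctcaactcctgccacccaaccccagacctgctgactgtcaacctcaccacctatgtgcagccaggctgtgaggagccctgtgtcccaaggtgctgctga
Krtap6-1 (chr16:89031963-89032199, plus strand) and Krtap16-8 (chr16:89047852-89048088, minus strand) encode short proteins rich in glycine and tyrosine. Their spans are 97.9% identical, with 5 differences in 237 bases, which are in capitals.
Krtap6-1: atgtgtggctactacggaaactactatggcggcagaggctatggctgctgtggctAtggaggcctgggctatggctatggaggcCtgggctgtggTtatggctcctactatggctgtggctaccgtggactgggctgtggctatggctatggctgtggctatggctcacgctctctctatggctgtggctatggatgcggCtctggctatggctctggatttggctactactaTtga
Krtap16-8: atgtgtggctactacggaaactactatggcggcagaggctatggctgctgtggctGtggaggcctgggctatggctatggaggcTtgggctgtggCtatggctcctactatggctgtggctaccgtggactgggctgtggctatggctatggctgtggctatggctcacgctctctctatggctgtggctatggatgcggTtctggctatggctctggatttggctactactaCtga
Of the 32-bp stretches that start within the spans of Krtap3-2 and Krtap3-3, 5.67% occur once in the genome, so most reads within these spans cannot be told apart by sequence. At Krtap6-1 the share was 27% and at Krtap16-8 it was 34.2%. At least 80% of the stretches were unique in 57 genes, 44 keratin and 13 Krtap. Values of the other genes depend on how the aligner placed repeated reads, which is not given in the sources used here. Among keratins 7 fell below that share, namely Krt6b (44.2%), Krt6a (49.6%), Krt16 (55.4%), Krt81 (62.1%), Krt86 (74.1%), Krt31 (78.4%) and Krt34 (79.3%).

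In untreated cells the 97 genes had a median of 11.5 reads per window, against 7.75 over all genes. After IL-6 the medians were 16.8 and 8.14. All IL-6 values carry the scaling of the deposited table, in which 1 read counts as 1.04. No replicate supports this scaling, and every ratio below rests on it. Setting the olfactory receptor genes, another tissue-specific family, to a median of 0 would shift every log2 ratio by -0.46, which turns the direction of many genes described below as higher after IL-6. In untreated cells 70 of the 97 genes were above the median of all genes, and after IL-6 78 were. Non-overlapping coding spans of all genes held 9042273 reads in untreated cells and 8498205 after IL-6, or 7.56 and 7.38 per window.

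**Figure D1:**
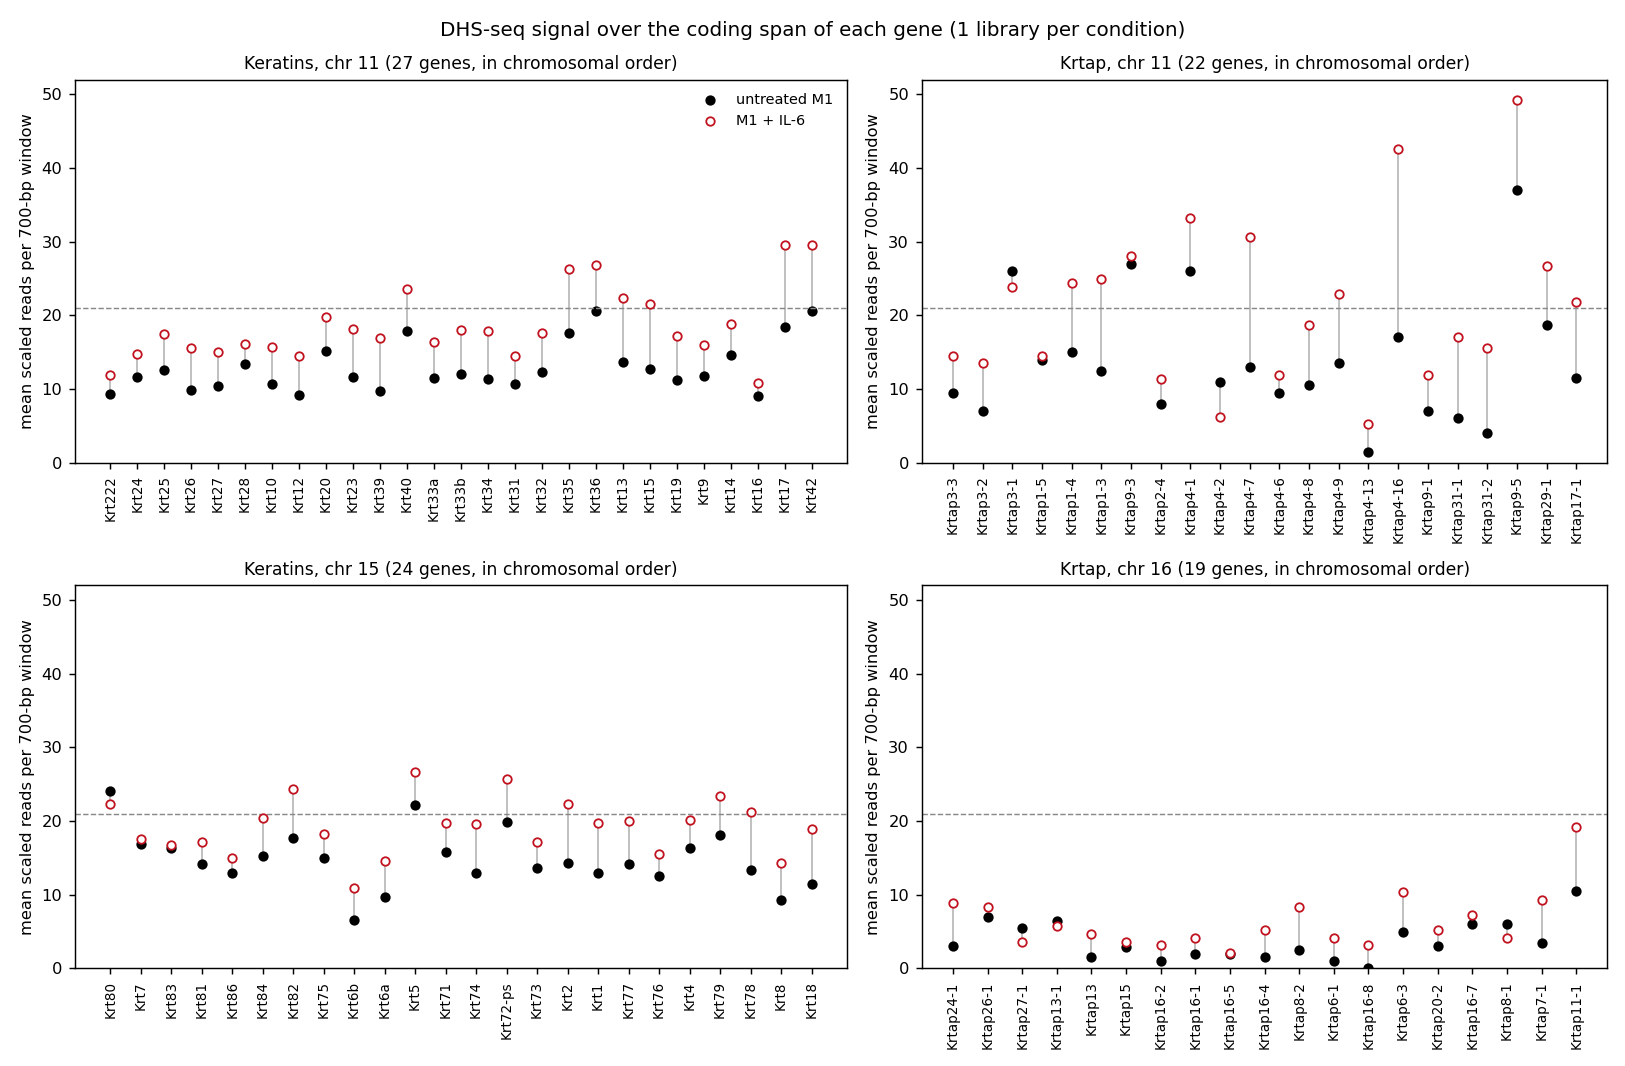
Mean scaled reads per 700-bp window over the coding span of 92 genes of the chromosome 11, 15 and 16 clusters, in chromosomal order, in untreated M1 cells (filled) and after IL-6 (open), 1 library each; the dashed line is the study's threshold of 21 reads. All 27 chromosome 11 keratins are higher in the IL-6 library under the deposited scaling (not under that set on olfactory receptor genes, where several, Krt20 and Krt222 among them, are lower), and all chromosome 16 genes lie under the line.

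The keratins of simple epithelia had levels near those of the other classes. Krt8 had 112 reads in its 12 windows in untreated cells and 165 after IL-6, or 9.33 and 14.3 scaled reads per window. Krt18, its partner, had 69 reads in 6 windows and 109 after IL-6, or 11.5 and 18.9 per window. The IL-6 library was higher at both, with ratios of 1.53 (95% interval 1.20 to 1.96) and 1.64 (1.20 to 2.25). These are exact Clopper-Pearson intervals of counting error, and they say how the libraries differ and not how the conditions do. Krt19, a type I keratin of ducts and glands, had 90 and 133 reads, or 11.2 and 17.3 per window. Krt20, a keratin of the gut and urothelium, had 213 and 266 reads over 14 windows. Krt23, a type I keratin, had 256 and 386 reads over 22 windows, or 11.6 and 18.2 per window. In all 3 the interval of the ratio lay above 1.

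Krt7 and Krt80 did not have this pattern. Krt7, a type II keratin of glandular epithelia, had 387 reads in 23 windows in untreated cells and 388 after IL-6, or 16.8 and 17.5 per window. Krt80, at the centromeric end of the chromosome 15 cluster, had the most reads of all 97 genes, 723 in untreated cells and 646 after IL-6 over 30 windows. Its means were 24.1 and 22.4 per window. The ratios were 1.04 (0.902 to 1.20) and 0.928 (0.833 to 1.03), so that on the deposited scaling neither library stood above the other beyond counting error. With the olfactory receptor genes at 0 the log2 ratios were -0.40 for Krt7 and -0.57 for Krt80, and without scaling the interval of Krt80 lay below 1. Krt80 was the keratin with the lowest ratio, and the only one of 51 below 1.

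The basal pair differed in level. Krt5 had 177 reads in 8 windows in untreated cells and 206 after IL-6, means of 22.1 and 26.7 per window, the second highest keratin mean in untreated cells after Krt80. Krt14 had 102 and 127 reads in 7 windows, 14.6 and 18.8 per window. Both intervals of the ratio held 1 (0.984 to 1.49 for Krt5 and 0.988 to 1.69 for Krt14). Krt15, a type I keratin of basal and hair follicle stem cells, had 89 and 145 reads, with a ratio of 1.69 (1.29 to 2.23). Of the pair of the upper epidermis, Krt1 had 104 and 152 reads and Krt10 had 64 and 91, with ratios of 1.52 (1.17 to 1.97) and 1.48 (1.06 to 2.07). Both partners of that pair were thus higher in the IL-6 library.

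The keratins of wounded and fast-growing epidermis are Krt6a, Krt16 and Krt17. Krt6a had 68 and 98 reads and Krt16 had 45 and 52, both on spans of which about as many stretches were repeated as unique. Krt17 had 129 reads in 7 windows in untreated cells and 199 after IL-6, means of 18.4 and 29.5. It belonged with Krt36, a hair keratin (103 and 129 reads, 20.6 and 26.8 per window), and Krt42 (226 and 313 reads, 20.5 and 29.5 per window) to the 3 chromosome 11 keratins with the highest untreated means. Krt17 and Krt42 are direct neighbors at the telomeric end of the cluster. At the other end Krt222, a keratin-like gene, had 131 and 161 reads over 14 windows, 9.36 and 11.9 per window.

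Grouped by the tissue that uses them, the keratin classes had median log2 ratios of IL-6 over untreated from 0.42 to 0.61. In the simple epithelial class 6 of 7 genes were above 0 and the median was 0.61. All 20 genes of stratified and basal epithelia were above 0 (median 0.53), as were all 8 of the inner root sheath (0.42) and all 14 measured hair keratins (0.45). The interval lay above 1 in 5, 14, 7 and 9 genes of these classes. Of all 19776 genes with at least 20 summed reads, 27.5% had such an interval and 52.8% a log2 ratio above 0. The untreated medians of the classes were 11.6, 13.2, 13.2 and 13.5 reads per window, so the classes also lay close together in level. Krt85 is not analysed here.

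The chromosome 11 Krtap genes had the widest range of levels. Krtap9-5 had 26 and 48 reads in its 2 windows in untreated cells and 42 and 53 after IL-6. Its mean of 37.0 was the highest of all 97 genes in untreated cells, and that of 49.3 the highest after IL-6. Krtap9-3 had 27 reads in its only window in each library. Krtap3-1, shown above, had 26 reads in untreated cells and 23 after IL-6. The 22 genes ranged from 1.5 to 37.0 reads per window in untreated cells and from 5.19 to 49.3 after IL-6. With 1 to 3 windows each, most had wide intervals. Of the 19 with at least 20 summed reads, 8 (42.1%) had an interval above 1, beside the 27.5% of all genes.

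Among the groups of the 97 genes, the chromosome 16 Krtap genes had the lowest median in untreated cells. After IL-6 they had the lowest of the 3 clusters, while the 5 genes of chromosomes 7 and 10 had a median of 4.15. The chromosome 16 median was 3 reads per window in untreated cells and 5.19 after IL-6. All 19 chromosome 16 genes were under 20 scaled reads per window in both libraries. Krtap11-1, at the telomeric end, was the highest with 21 reads in 2 windows in untreated cells and 37 after IL-6. Krtap13-1 had 13 and 11 reads, and Krtap26-1 had 7 and 8. Krtap16-8 had 0 reads in untreated cells, a value that allows up to 3 reads, and 3 after IL-6. It was the only gene of the 97 without reads in a library, and its sequence is mostly repeated, as shown above. Only 7 of the 19 genes had 20 reads over both libraries.

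Pooled over their windows, chromosome 16 had far fewer reads per window than chromosomes 11 and 15, which differed in ratio. Chromosome 11 genes held 3751 reads in untreated cells and 5245 after IL-6 over 292 windows, or 12.8 and 18.6 per window, a ratio of 1.45 (1.39 to 1.51). Chromosome 15 genes held 4702 and 5653 reads over 298 windows, or 15.8 and 19.7 per window, a ratio of 1.25 (1.20 to 1.30). Chromosome 16 genes held 150 and 232 reads over 42 windows, or 3.57 and 5.73 per window, a ratio of 1.61 (1.30 to 1.99). The chromosome 15 interval lay below that of chromosome 11, and the wide chromosome 16 interval held the chromosome 11 value. Within chromosome 11 the pooled ratio was 1.44 (1.37 to 1.5) for keratins and 1.55 (1.38 to 1.74) for Krtap genes, so both kinds of gene had like ratios within counting error. With Krt80 left out, the chromosome 15 ratio was 1.31. With each gene weighted equally, the levels after IL-6 were 19.8 on chromosome 11 and 19.3 on chromosome 15, so that their order turned. With olfactory receptor genes set to 0 the 3 ratios were 1.06, 0.909 and 1.17, so that the direction on chromosome 15 turned.

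Over all 97 genes, 81 had at least 20 summed reads, and their median log2 ratio was 0.51 (range -0.79 to 1.64), against 0.05 over all genes. This minimum is on the sum of both libraries. Krtap3-2 (7 and 13 reads), Krtap24-1, Krtap8-2 and Krtap7-1 reached it only through the IL-6 library, where they were higher. Krtap5-5 (13 and 7) and Krtap8-1 (12 and 8) reached it only through the untreated library. The counts that follow thus rest in part on this minimum. Of the 81, 73 were above 0, beside the 52.8% of all genes. The interval lay above 1 in 49 (60.5%), held 1 in 32 and lay below 1 in 0, where 32.1% of all genes lay below. The direction depended on the scaling between the libraries. When the olfactory receptor genes were set to a median of 0, the median of the 81 genes became 0.05, with 3 intervals above 1 and 5 below. The 16 genes with fewer reads, 12 of them on chromosome 16, held 71 reads in untreated cells and 121 after IL-6, and 14 of the 16 had a higher scaled value after IL-6.

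**Figure D2:**
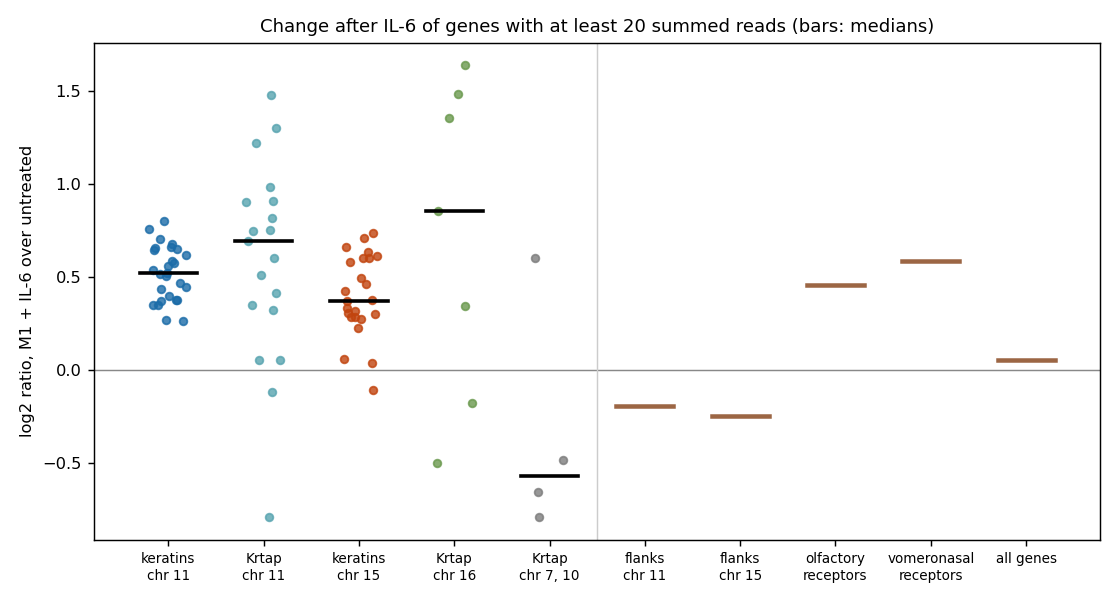
Log2 ratio of IL-6 over untreated for the 81 genes with at least 20 summed reads (1 point a gene, sideways position for display only, bars at medians), beside the medians of other sets (brown bars). Chromosome 11 keratins lie between 0.26 and 0.80, while the flanks of chromosome 11 and 15 have medians of -0.20 and -0.25.

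By the stricter rule of at least 2-fold with an interval that excludes 1, which 2% of all genes met upward and 12.6% downward, 6 of the 81 genes were higher after IL-6 and 0 were lower. All 6 were Krtap genes. On chromosome 11, Krtap4-16 had 17 and 41 reads in its only window, Krtap31-1 had 12 and 33 in 2 windows, and Krtap4-7, which the naming rule did not cover and which is named after its values were seen, had 26 and 59. On chromosome 16, Krtap24-1 had 6 and 17 reads, Krtap8-2 had 5 and 16, and Krtap7-1 had 7 and 18. These 3 reached the minimum of 20 summed reads only through the IL-6 library, where they were high, so their count says little. The lower bounds of their ratios ran from 1.06 for Krtap7-1 to 1.46 for Krtap4-7, so counting error allows far smaller differences than the measured 2.36-fold to 3.32-fold. The coding spans of the 3 chromosome 11 genes of the 6 are partly repeated (24.7% to 66.5% unique), and those of the 3 of chromosome 16 were 100% unique. The rest of their 700-bp windows, which also gave reads, was not checked for repeats. With a minimum of 50 summed reads, 2 of the 6 could still be called. With the scaling on olfactory receptor genes, 1 gene was higher and 2 were lower by this rule.

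The 5 lowest log2 ratios were also those of Krtap genes. Krtap5-5 had 13 reads in untreated cells and 7 after IL-6, and Krtap5-3 had 20 and 12, both on chromosome 7. Krtap4-2 on chromosome 11 had 22 and 12 reads, Krtap8-1 on chromosome 16 had 12 and 8, and Krtap5-4 had 22 and 15. Every one of these 5 intervals held 1. Of the 5 Krtap genes outside the clusters, only Krtap12-1 had more reads after IL-6 (19 and 28), and the pooled ratio of the 5 was 0.877 (0.631 to 1.22).

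The flanks of the chromosome 11 and 15 clusters had lower ratios than the clusters themselves. The 76 genes within 1 Mb on either side of the chromosome 11 cluster had medians of 22.7 reads per window in untreated cells and 19.6 after IL-6, with a median log2 ratio of -0.20. Among them 13 intervals lay above 1 and 38 below, and 16 genes were at least 2-fold lower, where the shares over all genes are 27.5%, 32.1% and 12.6%. The 57 genes that flank the chromosome 15 cluster had medians of 20.1 and 16.3, a median log2 ratio of -0.25, 5 intervals above 1, 26 below and 10 genes at least 2-fold lower. In untreated cells both flanks had a higher median level than the genes of the cluster between them, and after IL-6 the medians lay closer together (19.6 beside 17.6 on chromosome 11, 16.3 beside 19.7 on chromosome 15). Around chromosome 16 the 10 flanking genes had medians of 7.01 and 8.45, and the 7 with at least 20 summed reads did not have this pattern, with a median log2 ratio of 0.44, 4 intervals above 1 and 2 below. All these sets share the same libraries and scaling.

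Other genes that lie inside the chromosome 11 and 15 bounds had median ratios near those of the cluster genes. Within the chromosome 11 bounds 34 further genes are listed, mostly short gene models with Gm names, with medians of 13.0 and 17.6 reads per window and a median log2 ratio of 0.51. Of the 28 with at least 20 summed reads, 22 were above 0, 10 had an interval above 1 (35.7%, beside 27.5% of all genes) and 0 below 1. One of these 10, Gm11595, covers the span of Krtap4-8 and shares its reads. The 4 further genes inside the chromosome 15 bounds had a median log2 ratio of 0.27. Inside the chromosome 16 bounds 14 further genes held 76 and 79 reads, a pooled ratio of 1.08 (0.778 to 1.5) beside 1.61 for the Krtap genes, and 1 of them had 20 summed reads. Elsewhere on chromosomes 11, 15 and 16, all other genes had medians of -0.07, -0.04 and 0.05.

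Other clustered gene families of sensory tissue were lower in level than the keratins and had similar ratios. The 1113 olfactory receptor genes had medians of 3.67 and 5.54 reads per window and a median log2 ratio of 0.46 over the 605 with at least 20 summed reads. The 327 vomeronasal receptor genes had medians of 1.33 and 2.08 and a median log2 ratio of 0.59 over 121 genes. The chromosome 16 Krtap median in untreated cells, 3, lay between these families, while the chromosome 11 and 15 medians were above both. Genes of at most 3 windows, which match the short Krtap spans in length, had medians of 5.33 and 6.75 and a median log2 ratio of 0.11. The 45 Krtap genes of that length had medians of 7 and 10.4 and a median log2 ratio of 0.60.

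The study's methods use more than 21 reads as the threshold of a site. Averaged over the windows of a gene, 6 genes did so in untreated cells, against 14.4% of all genes, and 25 did so after IL-6, against 6.43%. The second number rests on the scaling, and with olfactory receptor genes at 0 it was also 6. In untreated cells these were 4 chromosome 11 Krtap genes with Krt5 and Krt80. Single windows can be read where a span covers 1 or 2. In those 42 genes 5 of 69 windows were over 21 reads in untreated cells and 14 after IL-6. Their medians were 7 and 10.4 and their highest values 48 and 55.0. The 14 rests on the deposited scaling, and no share over all genes was taken for single windows. For longer spans the mean and SD bound the strongest window. By these bounds and the single windows, 19 genes had a window over 21 in untreated cells for certain and 48 had none for certain. After IL-6 these numbers were 46 and 34, which also rest on the deposited scaling. No share over all genes was taken for this measure either, so no change of these genes is read from it.

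The SD between windows shows how far the signal of a gene is gathered in a few windows. The variance divided by the mean is 1 for reads that fall at random. In the 52 genes with at least 5 windows, 51 of them keratins, its median was 4.19 in untreated cells and 3.99 after IL-6, against 6.33 and 3.81 over all genes of that many windows. In untreated cells 10 of the 52 lay above the median of all genes, and after IL-6 28 did. The ratio was lower after IL-6 in 27 of the 52 genes and in 72.1% of all genes of that many windows. The flanks of chromosome 11 had a median of 15.9 that became 6.32, and those of chromosome 15 went from 18.0 to 6.38. Those of chromosome 16 moved less, from 5.00 to 4.07. In untreated cells the median of the 52 genes was thus lower than that of all genes, and it moved little after IL-6. The genes were not matched for number of windows. In those of the 52 with at least 10 windows the medians were 5.61 in untreated cells and 4.56 after IL-6, with no such median of all genes beside them. All these measures come from 1 library per condition and have no interval across libraries.

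**Figure D3:**
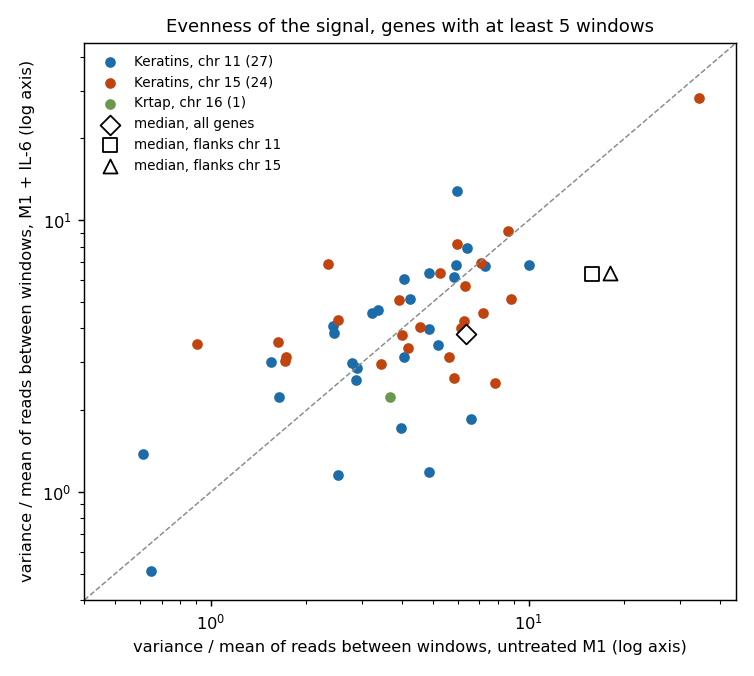
Variance divided by mean of the reads between windows in untreated cells (x axis) and after IL-6 (y axis), both on log axes, for the 52 genes with at least 5 windows, with medians of all genes and of the flanks as open symbols; the dashed line marks equal values. The flank medians of chromosome 11 and 15 lie far below the line. The keratins lie on both sides of the line, and Krt72-ps is the point at the upper right.

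One keratin stood apart in this measure. Krt72-ps, matched through RefSeq synonyms to Krt72, a type II keratin of the inner root sheath, had 299 reads in 15 windows in untreated cells and 372 after IL-6. Its variance was 34.2 times the mean in untreated cells and 28.2 times after IL-6, the highest of the 52 genes in both. The mean and SD place at least 52 and at most 114 reads in its strongest window in untreated cells, and at least 52 and at most 120 after IL-6. The window itself cannot be placed within chr15:101606991-101616889 from the deposited values. Among the lowest values, Krt15 had variances of 0.65 and 0.51 times the mean, so its 7 windows held nearly equal numbers of reads in both libraries. Krt8 went from 0.90 to 3.49. Krt14 had the second highest value in untreated cells, 10.0, and 6.86 after IL-6.

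For 8 keratins a second listed transcript divides the windows into a pair of stretches. In Krt17 the 3 windows at the 3′ end held 52 reads in untreated cells and 104 after IL-6, a ratio of 2.08 (1.47 to 2.95). Its 4 windows with the transcription start held 77 and 95, a ratio of 1.28 (0.938 to 1.75). The higher value of Krt17 thus came largely from the 3′ stretch, although the intervals overlap. In Krt80 the 17 windows that hold the start had 436 and 366 reads, a ratio of 0.871 (0.756 to 1.00), and the other 13 had 287 and 280. In Krt7 9 windows away from the start held 218 and 211 reads, 24.2 and 24.3 per window, against 12.1 and 13.1 in the other 14. The 5 windows of Krt10 that hold the start had 57 and 85 reads. In these genes the start stretch was not uniformly the stronger one.

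The level of signal varied with base composition. The windows of the 97 genes had a median GC content of 49.9%, against 45.6% over all genes. The medians were 47.4% for chromosome 11 keratins, 51.3% for chromosome 11 Krtap genes, 51.0% for chromosome 15 and 43.1% for chromosome 16, the cluster with the fewest reads. Across the 97 genes GC content and the log2 level had a Pearson correlation of 0.53 and a Spearman correlation of 0.49 in untreated cells, and of 0.50 and 0.46 after IL-6. Across 22592 genes the Pearson values were 0.54 and 0.54, and the Spearman values, 0.62 and 0.70, were higher than those of the 97 genes. GC content and the log2 ratio had a Pearson correlation of -0.12 over the 81 genes, and of -0.24 over all genes with at least 20 summed reads. Genes are not independent replicates and all points share 2 libraries. The part of base composition in the levels was not tested.

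**Figure D4:**
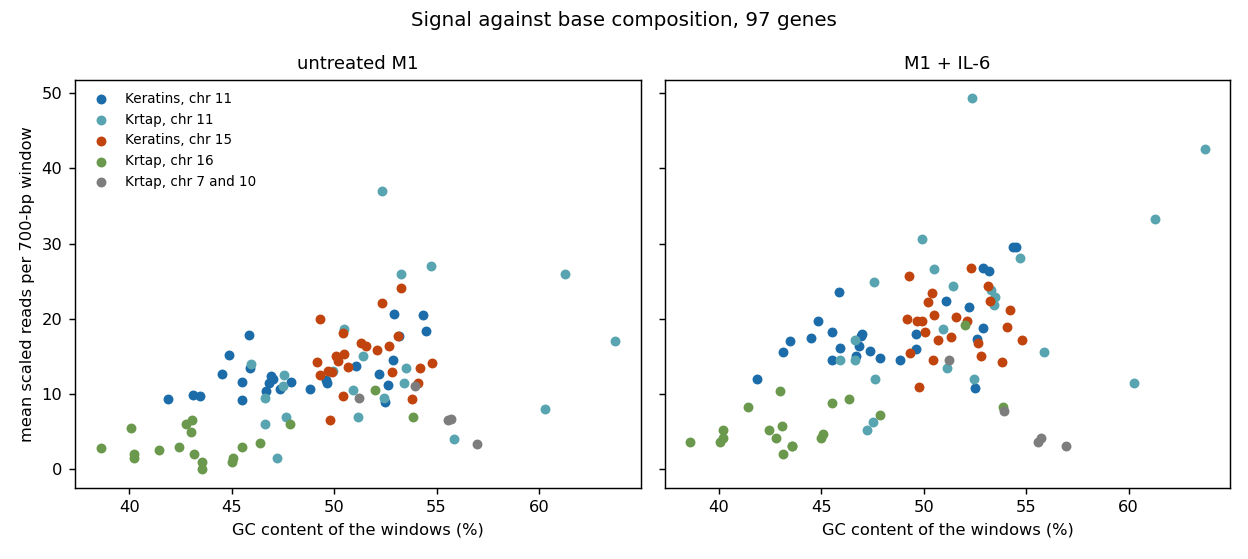
Mean scaled reads per window against the GC content of the windows for the 97 genes, in untreated cells (left) and after IL-6 (right). Most chromosome 16 Krtap genes, whose median GC content is 43.1%, lie at the lower left in both, while Krtap11-1 and Krtap26-1 have 52% and 53.9%. The genes of chromosome 7 and 10, at a median GC content of 55.6%, have medians of 6.67 and 4.15 reads per window. Among them Krtap12-1 reaches 14.5 after IL-6.

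Promoters from the RefSeq table were searched for the TATA box core TATAAA on either strand, in the 250 bases before each start. The table uses GRCm38.p6, so its coordinates differ from those above. It held 71 promoters of 70 of the 97 genes, and 47 of them (66.2%) contained the motif, against 12.4% of all 32851 promoters. Their median GC content was 43.2%, against 52.4% for all promoters, and the part of base composition in the share with this motif of A and T was not tested. The medians were 40.6% for chromosome 11 Krtap genes and 52.4% for chromosome 15 keratins. The share was 86.1% in Krtap genes and 45.7% in keratins. It was 95% for chromosome 11 Krtap genes (19 of 20), 57.1% for chromosome 11 keratins, 28.6% for chromosome 15 keratins and 83.3% for chromosome 16 Krtap genes. Both kinds of promoter are shown by 250 bases before the start, with the motif in capitals, for Krt10 (chr11:99389365-99389614, minus strand), for Krtap11-1 (chr16:89571184-89571433, minus strand), the chromosome 16 gene with most signal, and for Krt18 (chr15:102027966-102028215, plus strand), where these letters were not found.
Krt10: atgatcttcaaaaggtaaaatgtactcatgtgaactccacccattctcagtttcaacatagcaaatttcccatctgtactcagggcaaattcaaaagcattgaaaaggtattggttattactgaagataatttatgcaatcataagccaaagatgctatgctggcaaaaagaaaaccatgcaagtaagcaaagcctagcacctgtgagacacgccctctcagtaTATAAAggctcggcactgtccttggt
Krtap11-1: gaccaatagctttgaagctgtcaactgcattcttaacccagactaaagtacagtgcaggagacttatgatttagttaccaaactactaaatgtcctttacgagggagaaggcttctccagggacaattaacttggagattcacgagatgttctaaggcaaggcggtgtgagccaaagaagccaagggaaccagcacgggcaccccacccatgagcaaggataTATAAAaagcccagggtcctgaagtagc
Krt18: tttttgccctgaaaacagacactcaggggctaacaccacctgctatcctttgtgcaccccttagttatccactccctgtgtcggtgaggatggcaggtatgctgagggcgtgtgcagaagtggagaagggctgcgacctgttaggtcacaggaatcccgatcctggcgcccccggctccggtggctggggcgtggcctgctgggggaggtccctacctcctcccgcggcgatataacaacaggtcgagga
The clusters with the most and the least motifs, chromosome 11 Krtap and chromosome 15, both had more signal than chromosome 16. A match is a run of letters and not a measured site.

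Other genes of cornified tissue were looked up from lists of their names. Of 23 genes of the cornified envelope, the protein shell of dead epidermal cells, 19 had at least 20 summed reads. All 19 had a log2 ratio above 0, with a median of 0.56, 10 intervals above 1 (52.6%) and 0 below, beside the 27.5% above and 32.1% below of all genes. Of those with fewer reads, Lce1b had 3 and 0 reads, Lce1c 5 and 4, Lce3b 6 and 6 and Lce1a1 1 and 9. By the 2-fold rule 6 of the 19 were higher, beside 2% of all genes, among them Lor (loricrin, 14 and 34 reads), Ivl (involucrin, 16 and 34), Flg (filaggrin, 13 and 26) and Sprr3 (10 and 30). Sprr3, Sprr1a (9 and 17 reads), Sprr4 (9 and 13) and Lce3a (10 and 13) reached 20 summed reads only through the IL-6 library, where they were higher. The count of all 19 above 0 thus rests in part on this minimum. Lce1b and Lce1c, which were lower, did not reach it. The desmosome and its linkers, which anchor keratin filaments, had 4 of 8 genes with an interval above 1 and 2 below, Jup (plakoglobin, 480 and 393 reads) and Dsp (desmoplakin, 570 and 477). Of 14 regulators of epidermis and hair, 7 had an interval above 1, among them Trp63 (830 and 1287 reads), the master regulator of stratified epithelia. Only Tfap2a had an interval below 1 (268 and 111 reads), while Dlx3 (26 and 54) was at least 2-fold higher. In all, 6 of the 8 linkers and 12 of the 14 regulators were above 0. The scaling on olfactory receptor genes would turn the lower envelope genes, such as Cdsn (0.20) and Tgm1 (0.35 on the log2 scale), below 0 as well.

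Markers of the labelled cell type and of epithelia were read in the same libraries. The 9 myeloid markers had a median of 9.29 reads per window in untreated cells and a median log2 ratio of -0.43, with 2 intervals above 1 (22.2%) and 5 below (55.6%), beside 27.5% and 32.1% of all genes. Spi1, the myeloid factor PU.1, had 28.9 reads per window in untreated cells and 12.9 after IL-6, and Ptprc, the leukocyte antigen CD45, had 7.86 and 5.49. The other direction was seen at Kit, the receptor of stem cell factor, with 4.10 and 5.45, and at Mpo, the myeloperoxidase of granules, with 10.8 and 13.6. Csf3r and Cd34 had intervals that held 1. The 5 epithelial markers had a median of 6.85 in untreated cells and a median log2 ratio of 0.46, with 4 intervals above 1. Cldn4 had 27.5 and 53.5 reads per window over 2 windows, Cdh1 had 12.2 and 12.9, and Epcam had 3.86 and 5.44. The variance between windows, divided by the mean, had a median of 25.3 in the myeloid markers in untreated cells and of 2.99 in the epithelial ones. After IL-6 these medians were closer, 5.23 and 3.69. The epithelial medians rest on the 4 genes with at least 5 windows. No epithelial marker was at 0, and the range of their means in untreated cells, 2.70 to 27.5 reads per window, overlapped that of the myeloid markers, 4.10 to 28.9. Expression was not measured in these files, and the part of cell identity in the keratin values was not tested.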

How the data were processed

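DHS-seq was done in 1 library of untreated M1 cells and 1 of IL-6-treated M1 cells. After DNase I digestion of nuclei the authors sequenced small fragments. Reads were trimmed and placed on NCBIM37 by BWA, and Seqmonk was used to display them. The tool that made the table is not given in the sources used here. Versions are not given in the sources used here. The signal values that the authors deposited are the mean and SD over the 700-bp windows that a coding span touches, for 55432 transcripts. A column without values was not used. Mean times windows gave whole multiples of 1.0 (untreated) and 1.03816 (IL-6) within 0.05 in 100% of rows, so reads were recovered. The authors' scaling was kept, which differs from the read numbers at sites that had been planned for. The row with most windows stood for a gene. Log2 ratios add 0.5 reads, need 20 summed reads and have exact 95% Clopper-Pearson intervals. Reads were not marked as single molecules, so intervals cover counting error only.

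The genes and lists were chosen with earlier results of these data known. Genes named are the 3 highest in untreated cells of each group, the 5 highest and 5 lowest log2 ratios, genes without reads in a library, and textbook keratins. Krtap4-1 tied with Krtap3-1 at 26 reads and was not taken. Genes named outside this rule were chosen after their values were seen, for their repeats, their place or their part in an alternative. Alternatives covered scaling, transcript, reads added, minimum, fold, threshold, repeats and weighting. The read recovery and intervals were tested on simulated data for the untreated against the IL-6 library. There 193 of 200 genes changed 3-fold had that fold in their interval, and 198 were called. Of 22605 genes in all, 95 unchanged ones were called. The simulated reads fell at random (Poisson counts), which the intervals also assume, so this test covers counting error only. GC content and unique 32-bp stretches came from the 22 chromosome sequences of NCBIM37. Tools were Python 3.11.15, scipy 1.17.1, numpy 2.4.6, numba 0.67.0, pandas 2.3.3 and matplotlib 3.10.9.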

Additional observations from a re-analysis of the deposited data

How the results depend on the processing

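Of 90 alternative values for the main results, 59 stayed within the limits set for them, 30 moved and 1 reversed. The scaling between the libraries moved most. With olfactory receptor genes set to 0 the median log2 ratio was 0.048, and 1 gene was at least 2-fold higher and 2 lower. On that scaling 3 intervals lay above 1 and 5 below, and 6 genes were over 21 reads per window after IL-6. This count over 21 reads, and all counts of intervals above or below 1, were added after the data were seen. The ratios on that scaling were 1.06 on chromosome 11, 1.17 on chromosome 16 and 0.909 on chromosome 15, which reversed. Krt20, Krt222 and Krt72-ps then reversed to -0.083, -0.11 and -0.089. With 1-window genes as the reference, added after the data were seen, the median was 2.38, 78 genes were at least 2-fold higher, 78 intervals lay above 1, 81 genes were over 21 reads after IL-6, and the cluster ratios were 5.33, 4.58 and 5.89 on chromosomes 11, 15 and 16. Without scaling 1 interval, that of Krt80, lay below 1. A fold of 1.5 called 28 genes higher and a minimum of 50 reads 2. Means over 10 and over 15 reads were reached by 59 and 22 genes in untreated cells and by 74 and 58 after IL-6. The 57 mostly unique genes had a median of 18.2 after IL-6. With genes weighted equally, chromosome 11 had 13.4 and 19.8 reads per window, and chromosome 15 had 14.8 in untreated cells and a ratio of 1.30. Without Krt80 chromosome 15 had 14.8 in untreated cells and a ratio of 1.31, and without Krtap15 chromosome 16 had 6.79 after IL-6. For all of these the cause was not tested. Among 175 values for single genes 124 stayed, 48 moved and 3 reversed. No paired analysis was possible because there is only 1 library of each condition. Depth limits the Krtap genes most, since 16 genes had fewer than 20 summed reads.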
